A study of Oryza sativa with 15 samples.

Results

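The regions described here are the differentially methylated regions (DMRs) of the CpG class that carried no gene annotation and started within 2.5 Mb of the middle of a rice centromere. They numbered 598 of the 11392 regions in the 3 deposited lists. Each list compares 1 plant type with WYJ7. The CK list held 314 such regions of 5122, the SDWT list 130 of 2731 and the *pOsNAR2.1-OsNAR2.1* list 154 of 3539. WGBS of shoots of the rice cultivar WYJ7 gave 12 libraries, 3 of each plant type, and the study asked which methylation changes come with tissue culture and transformation. CK plants were T0 plants of WYJ7 regenerated from independent calli with no transformation and no selection, and were moved into water from rooting medium. SDWT plants were T4 descendants of a transformed T0 plant, selected on hygromycin, that had lost the *pOsNAR2.1-OsNAR2.1* construct by segregation (the labels name them FP, false positive). *pOsNAR2.1-OsNAR2.1* plants were T4 descendants of the same T0 plant that kept the construct, in which the native promoter of OsNAR2.1, a partner protein of high-affinity nitrate transporters, drives its own coding sequence. SDWT and *pOsNAR2.1-OsNAR2.1* therefore stand for 1 line each. WYJ7 was the wild type that had not passed through culture. The T4 plants and WYJ7 were grown in water from seed, so generation and seedling history cannot be told apart from culture in the comparison of CK with WYJ7. MeDIP-seq samples of another cultivar were not analysed here.

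Plant centromeres and the pericentromeric regions on either side of them hold satellite repeats and retrotransposons and few active genes. In plants the CG methylation of such repeats is copied at each cell division by the maintenance enzyme MET1 with help from the chromatin remodeller DDM1, and it usually lies near full methylation. CpG sites can keep an altered state through meiosis, so changes in this context can be inherited.

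The chosen regions were short. Their median width was 28 bp in the CK list, 19 bp in the SDWT list and 29 bp in the *pOsNAR2.1-OsNAR2.1* list, with a median of 4 CpGs in each list. Regions of 3 or 4 CpGs made up 257 of the 314 in CK, 112 of the 130 in SDWT and 126 of the 154 in *pOsNAR2.1-OsNAR2.1*. The longest region had 14 CpGs in the CK list, 10 in the SDWT list and 13 in the *pOsNAR2.1-OsNAR2.1* list. Added up, the regions covered 10378 bp, 2855 bp and 5161 bp of the 60 Mb inside the 12 windows. CpG numbers, and the limits set on them below, are those listed for each region. They cannot count separate CpG sites everywhere, since chr1:15181084-15181088 was listed with 4 CpGs in 5 bp. The same 11 bp at chr5:14472293-14472303 had 6 listed CpGs for SDWT but 4 for the line that kept the construct. Fewer sites than listed may therefore stand behind a level. Each methylation level is a mean over few cytosines, and the read depth behind it is unknown, so no counting error can be given for a single region.

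A region without a gene was found more often inside the windows than outside them in each list. In CK, 53.6% of the 586 CpG regions in the windows had no gene, against 42.8% of the 4376 outside. The shares were 48.9% of 266 inside and 42.4% of 2449 outside in SDWT, and 46.5% of 331 inside and 40.2% of 3117 outside in *pOsNAR2.1-OsNAR2.1*. The chosen regions came to 5.23 per Mb of window for CK, 2.17 for SDWT and 2.57 for *pOsNAR2.1-OsNAR2.1*. The edge of the windows was arbitrary, with 59 CK regions from 2 to 2.5 Mb and 74 from 2.5 to 3 Mb. The counts were 35 inside and 26 outside that edge in SDWT, and 43 and 39 in *pOsNAR2.1-OsNAR2.1*.

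Most of the chosen regions were hypo-DMRs in CK and hyper-DMRs in *pOsNAR2.1-OsNAR2.1*, with SDWT in between. A hyper-DMR here has a higher mean level in the line than in WYJ7, computed from the 3 libraries of each. In CK 47 regions gained and 267 lost methylation on average. The hyper share of 15% (95% Wilson interval 11.4% to 19.3%, counting error only) stood beside 28.6% over all 5122 regions of the list. In SDWT 73 regions were hyper-DMRs, 56 were hypo-DMRs and 1 had equal means, so the hyper share was 56.2% (47.6% to 64.4%) beside 51.6% over the whole list. In *pOsNAR2.1-OsNAR2.1* there were 105 hyper-DMRs, 47 hypo-DMRs and 2 with equal means, a hyper share of 68.2% (60.5% to 75%) beside 76.9% over the whole list.

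The hyper share near centromeres departed from the arms downwards in CK and *pOsNAR2.1-OsNAR2.1* and upwards in SDWT. Unannotated CpG regions outside the windows were hyper-DMRs in 27.9% of 1875 cases for CK, 48.8% of 1039 for SDWT and 77.2% of 1253 for *pOsNAR2.1-OsNAR2.1*. CpG regions with a gene were hyper-DMRs in 30.1%, 52.9% and 79.3% of cases, close to the unannotated regions outside the windows. The interval near centromeres lay below the shares of both other sets for CK and for *pOsNAR2.1-OsNAR2.1*. For SDWT it held both of their shares. Regions are not replicates and no test was made across them.

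**Figure D1:**
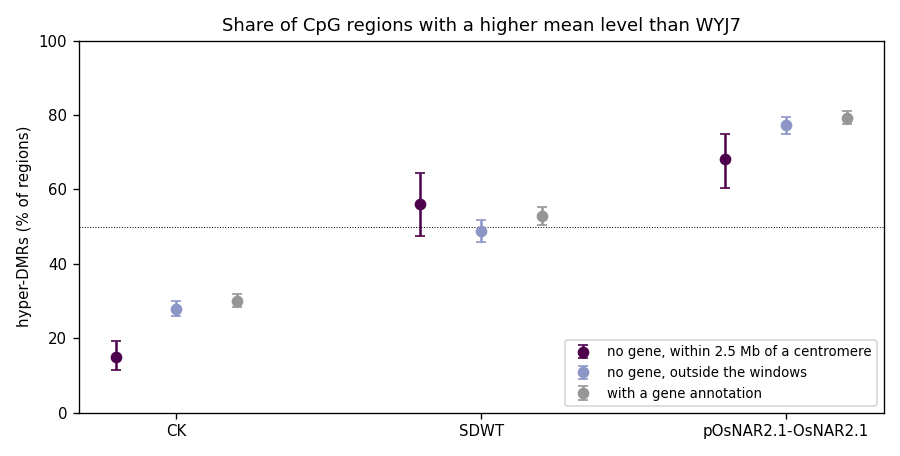
Share of CpG regions that were hyper-DMRs (y axis, percent of regions) in the list of each line, for unannotated regions within 2.5 Mb of a centromere, unannotated regions outside the windows and regions with a gene, with 95% Wilson intervals that cover counting error only. The share near centromeres was 15% in CK, against 27.9% outside the windows, and 68.2% in *pOsNAR2.1-OsNAR2.1*, against 77.2%.

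The libraries of CK lay below all WYJ7 libraries in 168 of its 267 hypo-DMRs and above all of them in 18 of its 47 hyper-DMRs. Over all 314 regions the share with all CK libraries below was 53.5%, beside 46.4% over the whole list. The share with all of them above was 5.73%, beside 15% over the whole list, and the groups overlapped in the other 128. In SDWT 45 regions (34.6%) had all line libraries above WYJ7, beside 35.5%, and 34 regions (26.2%) had all of them below, beside 33.7%. In *pOsNAR2.1-OsNAR2.1* 71 regions (46.1%) had all line libraries above WYJ7, beside 57.8%, and 38 regions (24.7%) had all of them below, beside 16.9%. The lists hold only regions that had been called different on these libraries, so the separation itself is no finding.

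Mean levels over the chosen regions lay lower in CK than in WYJ7 by more than the spread between libraries. These regions had been called different on the same libraries, and 267 of the 314 were hypo-DMRs. The separation and its test therefore depend on that choice and are a description. The mean level was 48.7%, 59.6% and 48.9% in CK-1, CK-2 and CK-3, against 73.3%, 73.2% and 72.6% in the WYJ7 libraries. CK-2 stood apart from CK-1 and CK-3 but was still below every WYJ7 library. The means were 52.4% ± 6.23 in CK and 73.0% ± 0.372 in WYJ7 (SD, n = 3 each), a difference of -20.6 points (two-sided exact permutation test, p = 0.1). With 3 libraries against 3 this test cannot give a p under 0.1. Adjustment over the 6 such tests made on the chosen regions left each at 0.1 (Benjamini-Hochberg, exact permutation tests). CK replicates came from separate calli and the WYJ7 replicates are described as separate lines. It is not stated whether the SDWT and *pOsNAR2.1-OsNAR2.1* replicates were separate plants, and these p-values measure only the spread between libraries, which may be technical in those lines.

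SDWT and *pOsNAR2.1-OsNAR2.1* both had higher mean levels than WYJ7 over their own chosen regions. The SDWT libraries averaged 46.9%, 44.8% and 46.9%, against 40.3%, 40.8% and 41.1% in WYJ7, a difference of 5.45 points (exact permutation test, p = 0.1). The *pOsNAR2.1-OsNAR2.1* libraries averaged 51.3%, 53.2% and 53.1%, against 42.1%, 45.1% and 43.8% in WYJ7, a difference of 8.84 points (exact permutation test, p = 0.1). The groups did not overlap in either list, but these regions too had been called different on the same libraries. The 3 lists share the WYJ7 libraries and hold mostly different regions, so the WYJ7 level of 73.0% in the CK list, 40.7% in the SDWT list and 43.7% in the *pOsNAR2.1-OsNAR2.1* list describes 3 sets of places. The SDWT difference depended on the choice of regions. It was 0.581 points in the 18 regions with at least 5 CpGs and 0.691 points within 5 Mb, against 13.6 points within 1 Mb and 16.4 points at differences of at least 40 points. The 20 SDWT regions with both means from 20 to 80% had a difference of -0.762 points, a setting chosen after seeing the data. The few regions with at least 10 CpGs, 2 in each list, had a difference of -1.55 points in SDWT and -0.1 points in *pOsNAR2.1-OsNAR2.1*.

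The size of the difference near centromeres was compared with that outside the windows. In CK the difference was -20.6 points near centromeres and -14.7 points outside, so the mean level near centromeres minus that outside changed by -5.96 points. In SDWT the difference was 5.45 points near centromeres and -0.349 points outside, a contrast of 5.80 points. This contrast was 0.541 points with windows of 5 Mb and 2.396 points at 5 or more CpGs, and line and WYJ7 then overlapped. In *pOsNAR2.1-OsNAR2.1* it was 8.84 points near and 15.4 points outside, a contrast of -6.55 points. The libraries of line and WYJ7 did not overlap in this contrast in any of the lists at 2.5 Mb (exact permutation test, p = 0.1 each). Within 1 Mb the contrast of *pOsNAR2.1-OsNAR2.1* was -4.56 points, and line and WYJ7 then overlapped (exact permutation test, p = 0.2). In CK it was -2.69 points at differences of at least 40 points, and with windows of 5 Mb it was -3.73 points in CK and -3.21 points in *pOsNAR2.1-OsNAR2.1*. The regions on both sides had been called on the same libraries.

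**Figure D2:**
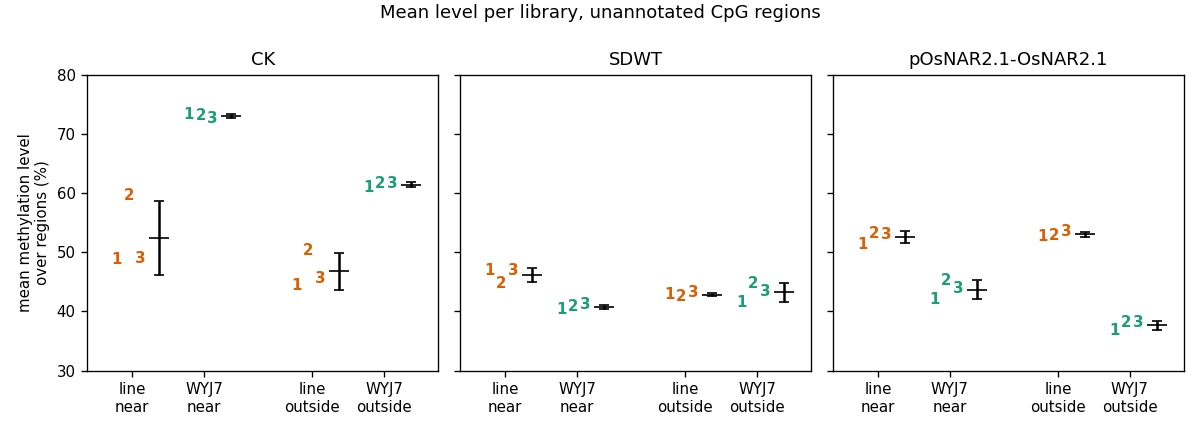
Mean methylation level over the unannotated CpG regions of each list (y axis, percent, from 30 to 80%) in each library, numbered 1 to 3 by replicate, for regions near centromeres and outside the windows, with the mean ± SD of 3 libraries as a bar beside the numbers. Near centromeres the CK libraries lay between 48.7 and 59.6%, against 72.6 to 73.3% in WYJ7, whereas the groups were 5.45 points apart in SDWT and 8.84 points apart in *pOsNAR2.1-OsNAR2.1*.

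The 2 directions started from opposite levels in WYJ7. Over the 267 CK hypo-DMRs the mean was 46.03%, 58.87% and 46.06% in the CK libraries, against 79.8%, 80.5% and 79.0% in WYJ7. In the 47 hyper-DMRs it was 64.0%, 63.7% and 64.8% in CK, against 36.6%, 31.8% and 36.5% in WYJ7. CK-2 thus stood above both other CK libraries in the hypo-DMRs and was level with them in the hyper-DMRs. In SDWT the 73 hyper-DMRs averaged 58.2% in the line and 27.0% in WYJ7, and the 56 hypo-DMRs 31.3% and 59.3%. In *pOsNAR2.1-OsNAR2.1* the 105 hyper-DMRs averaged 62.0% in the line and 35.5% in WYJ7, and the 47 hypo-DMRs 33.6% and 63.7%. The direction chose these regions, so the sizes are a description.

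More of the CK regions than of the regions outside the windows were highly methylated in WYJ7. The median region of CK had a level of 58.0% in CK and 85.7% in WYJ7. WYJ7 exceeded 80% in 179 of the 314 regions (57.0%), of which 178 were hypo-DMRs, and outside the windows it did so in 41.8% of regions. WYJ7 was under 20% in 23 regions, of which 18 were hyper-DMRs and 10 had all 3 WYJ7 libraries listed at exactly 0. In the 112 regions from 20 to 80%, where a change could go either way, 25% were hyper-DMRs, against 35.2% of the 805 such regions outside the windows. The WYJ7 level thus moved together with the hyper share of the CK list, and its part in that share was not tested beyond this comparison at middle levels.

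Regions listed with a low WYJ7 level were frequent in the other lists, near centromeres and outside the windows. In SDWT WYJ7 was under 20% in 46 of 130 regions (35.4%), from 20 to 80% in 60 and over 80% in 24. Outside the windows it was under 20% in 28.5% of SDWT regions. Of those 46 regions, 22 had all 3 WYJ7 libraries listed at exactly 0, which may stand for missing reads. The hyper share at middle levels was 51.7%, against 45.5% outside the windows. In *pOsNAR2.1-OsNAR2.1* WYJ7 was under 20% in 45 of 154 regions (29.2%), from 20 to 80% in 88 and over 80% in 21. Outside the windows it was under 20% in 33.8% of regions of that list. All 3 WYJ7 libraries were listed at exactly 0 in 29 of those 45. The hyper share at middle levels was 69.3%, against 78.2% outside the windows. The order of the 3 lists was therefore the same at middle WYJ7 levels as over all chosen regions.

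**Figure D3:**
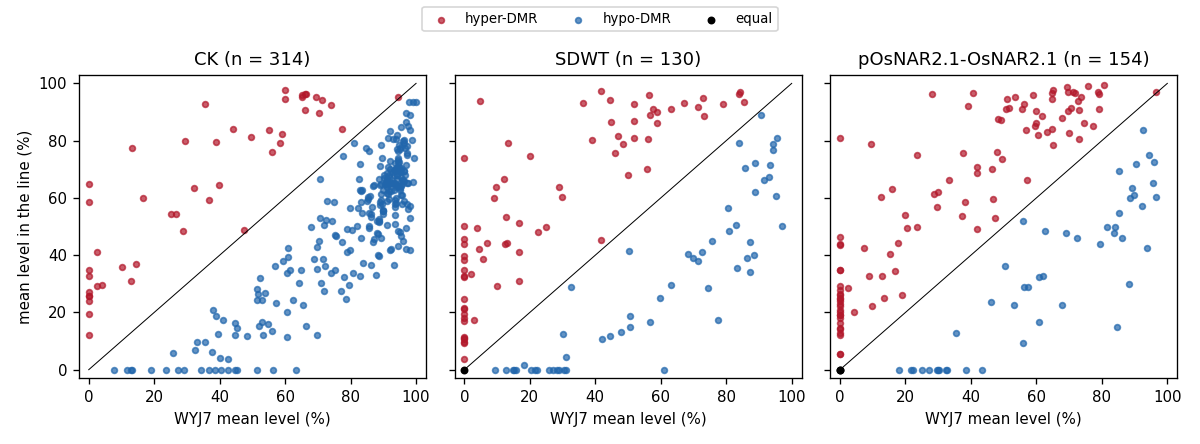
Mean level in the line (y axis, percent) against mean level in WYJ7 (x axis, percent) for each chosen region, with 314 points for CK, 130 for SDWT and 154 for *pOsNAR2.1-OsNAR2.1*, hyper-DMRs in red, hypo-DMRs in blue, regions with equal means in black, and the diagonal of equal levels. Points of CK crowd below the diagonal where WYJ7 was over 80%, while those of the other lists spread along both axes.

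The position inside the windows also differed between lists. The median distance from the centromere position was 1.26 Mb for CK, 1.51 Mb for SDWT and 1.59 Mb for *pOsNAR2.1-OsNAR2.1*. The innermost 0.5 Mb on either side held 71 CK regions (22.6%), 11 SDWT regions (8.46%) and 12 *pOsNAR2.1-OsNAR2.1* regions (7.79%). All 12 chromosomes had a CK region there, and 8 chromosomes had one in each other list. Among CpG regions with a gene in the same windows, 28 (10.3%), 11 (8.09%) and 23 (13%) lay within 0.5 Mb. The centromere positions are rounded to 0.1 Mb and a centromere is wider than 1 position, so distances are coarse and do not say which regions lie in centromeric repeats.

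In CK the hypo-DMRs became more frequent, and the WYJ7 level higher, towards the centromere. The 71 innermost CK regions comprised 4 hyper-DMRs and 67 hypo-DMRs. Further out, hyper-DMRs numbered 8 of 65 from 0.5 to 1 Mb, 11 of 49 from 1 to 1.5 Mb, 13 of 70 from 1.5 to 2 Mb and 11 of 59 from 2 to 2.5 Mb. The innermost regions averaged 54.4%, 62.7% and 53.1% in the CK libraries, against 82.8%, 79.5% and 81.4% in WYJ7. In the outermost step the means were 37.6%, 58.0% and 40.2% in CK, against 63.4%, 65.4% and 65.7% in WYJ7. The hyper share was 8.82% of the 136 regions within 1 Mb and 19.7% of the 664 regions within 5 Mb.

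SDWT and *pOsNAR2.1-OsNAR2.1* thinned out towards the centromere. In SDWT the innermost 11 regions included 9 hyper-DMRs, and the steps further out had 14 of 25, 15 of 26, 19 of 33 and 16 of 35. The innermost SDWT regions averaged 59.7%, 59.1% and 53.9% in the line, against 36.5%, 29.2% and 35.6% in WYJ7. In *pOsNAR2.1-OsNAR2.1* the steps from the inside out had 8 hyper-DMRs of 12, 17 of 24, 21 of 35, 28 of 40 and 31 of 43, and the hyper share stayed between 60.0% and 72.1%. The 12 innermost regions averaged 47.4%, 63.5% and 62.0% in the line, against 45.5%, 53.9% and 49.1% in WYJ7, and these groups overlapped.

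**Figure D4:**
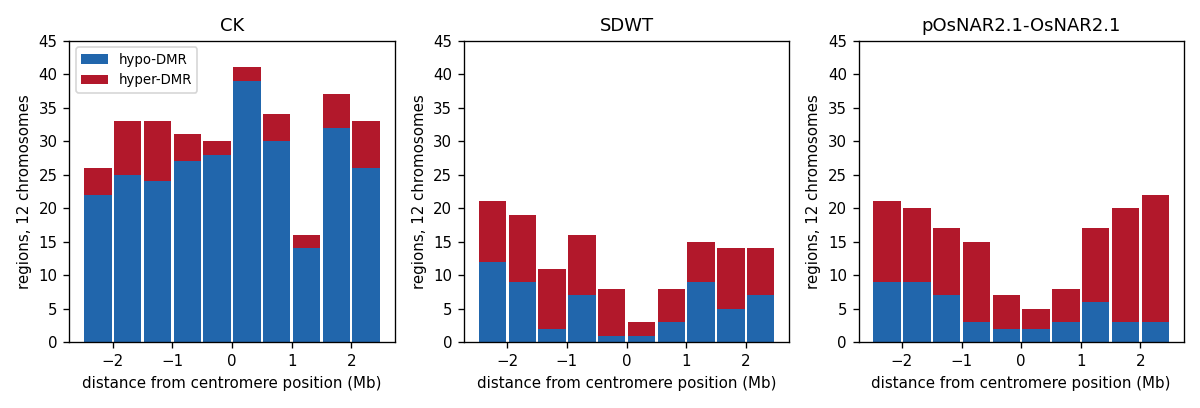
Number of chosen regions (y axis, summed over 12 chromosomes) by distance of their start from the centromere position (x axis, Mb, negative towards the start of the chromosome) in steps of 0.5 Mb, with hypo-DMRs in blue and hyper-DMRs in red. CK had 71 regions in the innermost 0.5 Mb on both sides, of which 67 were hypo-DMRs, while SDWT had 11 and *pOsNAR2.1-OsNAR2.1* had 12.

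Every chromosome contributed to the pattern of CK. Each of the 12 chromosomes had more hypo-DMRs than hyper-DMRs, with 16 to 36 regions per chromosome and a hyper share between 8.33% on chromosome 8 and 29.4% on chromosome 9. The hyper share was lower near the centromere than outside the windows on all 12. SDWT had more hypo-DMRs on 5 chromosomes, more hyper-DMRs on 5 and equal numbers on 2. Its share ran between 20% on chromosome 10 and 76.9% on chromosome 6, and was higher near the centromere than outside the windows on 8 chromosomes. In *pOsNAR2.1-OsNAR2.1* hyper-DMRs were in the majority on 10 chromosomes, with chromosome 4 (2 of 5) and chromosome 11 (4 of 8) as the exceptions. Its share was lower near the centromere on 10 chromosomes and higher on chromosomes 1 and 12. Between 2 and 20 regions per chromosome stood behind the values of SDWT and *pOsNAR2.1-OsNAR2.1*.

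The CK libraries differed in which regions were changed. A library was counted as changed where it differed from the WYJ7 mean by 20 points or more, in the direction of the region's mean difference. A step of that size in the opposite direction was not counted. At chr2:11323026-11323058, for example, CK-2 was listed at 0% and CK-1 and CK-3 at 97.1% and 96.7%, against a WYJ7 mean of 39.7%. Patterns without CK-2 can therefore include regions where CK-2 was listed on the other side of the WYJ7 mean. A lone 0 such as this one may also stand for missing reads. All 3 CK libraries were changed in 80 of the 314 regions (25.5%), beside 31.1% over the whole list. CK-1 and CK-3 without CK-2 were changed in 117 regions (37.3%), and this was the most frequent pattern. The pairs with CK-2 were rarer, with 15 regions for CK-1 and CK-2 and 24 for CK-2 and CK-3. CK-2 alone was changed in 31 regions, CK-1 alone in 12, CK-3 alone in 13 and no library in 22. Outside the windows CK-1 and CK-3 without CK-2 made up 31.0% of regions and all 3 libraries 31.7%. All 3 libraries were changed in 59 of 130 regions (45.4%) of SDWT, beside 45.2% over its list, and in 65 of 154 regions (42.2%) of *pOsNAR2.1-OsNAR2.1*, beside 47.6%.

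The spread between CK libraries came largely from CK-2. The median SD of the 3 levels of a region was 15.6 points in CK and 4.41 points in WYJ7, a difference of 11.2 points. Over the whole CK list it was 14.7 and 5.30 points, a difference of 9.39 points, so the wide spread was not particular to these regions. Without CK-2 the difference was 2.29 points, against 10.8 points without CK-1 and 12.1 points without CK-3. The median absolute difference between CK-1 and CK-3 was 9.48 points, while CK-2 differed from CK-1 by 23.4 points and from CK-3 by 21.6 points. In the 112 regions with a WYJ7 mean from 20 to 80% the difference in median SD was -0.722 points. In the 59 regions where both means lay in that range it was 8.19 points. Both settings were chosen after seeing the data. The median SD was 8.04 points in SDWT, against 8.77 in WYJ7, and 8.20 points in *pOsNAR2.1-OsNAR2.1*, against 6.38 in WYJ7. These 2 differences of -0.730 and 1.83 points changed sign with single libraries left out. An SD of 2 levels was then set against an SD of 3, and tends to be the smaller one. The sign changes alone therefore cannot separate dependence on a single library from the smaller SD of 2 levels. Over the SDWT regions the median absolute difference of WYJ7-1 was 9.54 points from WYJ7-2 and 13.3 points from WYJ7-3. Between WYJ7-2 and WYJ7-3 it was 5.63 points. Without WYJ7-1 the SDWT difference in median SD was 4.06 points, against -1.39 points without WYJ7-2 and 1.30 points without WYJ7-3. In *pOsNAR2.1-OsNAR2.1* it was -1.79, -1.33 and -1.12 points without replicates 1, 2 and 3 of the line. Without those of WYJ7 it was 3.81, 3.34 and 3.75 points.

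The regions with the widest separation and at least 5 CpGs show how the libraries behaved at single places. Positions are those of the lists, on IRGSP-1.0, and no gene was assigned to any of them. The CK hyper-DMR with the largest difference, chr7:11221875-11221884, was listed with 6 CpGs in 10 bp, more than that length can hold as separate sites. It had 92.0%, 8.18% and 94.5% in CK, against 0%, 0% and 0% in WYJ7. CK-1 and CK-3 were close to full methylation there and CK-2 stayed near the WYJ7 value, so the mean difference of 64.9 points describes none of the 3 libraries. The region at chr5:14343831-14343861, with 7 CpGs, had 39.5%, 11.2% and 37.4% in CK, against 3.12%, 2.28% and 1.87% in WYJ7. Here too CK-2 was the lowest of the 3. At chr3:19225418-19225509, with 5 CpGs, all CK libraries were high at 98.3%, 94.0% and 96.7%, against 73.7%, 43.1% and 81.5% in WYJ7.

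The hypo-DMRs of CK showed a similar split between libraries. At chr12:10636667-10636724, with 6 CpGs, the levels were 16.0%, 90.0% and 23.8% in CK, against 95.8%, 93.6% and 94.5% in WYJ7. CK-2 was just below the lowest WYJ7 library while CK-1 and CK-3 had lost most of the methylation. At chr4:8804030-8804073, with 5 CpGs, they were 32.2%, 73.2% and 13.4% in CK, against 93.9%, 91.2% and 80.6% in WYJ7. At chr5:14456260-14456282, also with 5 CpGs, the order was different, with 35.1%, 0% and 62.9% in CK, against 82.0%, 87.5% and 79.0% in WYJ7. There CK-2 was the lowest.

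The SDWT regions varied less between libraries of the line, except the last one given. The hyper-DMR at chr11:10027615-10027648, with 8 CpGs, had 96.8%, 79.3% and 83.3% in SDWT, against 24.8%, 58.0% and 51.9% in WYJ7. The one at chr8:13976090-13976113, with 10 CpGs, had 79.3%, 76.7% and 86.2% in SDWT, against 50%, 54.9% and 63.2% in WYJ7. In both, the SDWT libraries were high and the WYJ7 libraries scattered below them. The hypo-DMR at chr12:14382856-14382923 had 49.4%, 32.6% and 38.4% in SDWT, against 85.5%, 94.5% and 85.1% in WYJ7. The one at chr12:12190845-12190879 had 25.1%, 21.8% and 28.0% in SDWT, against 55.0%, 61.4% and 62.7% in WYJ7, with both groups tight. At chr8:13925759-13925824 the SDWT libraries spread over 31.3%, 45.7% and 67.8%, against 73.8%, 91.0% and 77.9% in WYJ7.

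The *pOsNAR2.1-OsNAR2.1* list held the largest of these gains. At chr12:12169650-12169689, with 5 CpGs, the levels were 80.4%, 88.3% and 67.8% in the line, against 8.82%, 11.8% and 7.5% in WYJ7, a difference of 69.5 points. All 3 libraries of the line were highly methylated at a place that was nearly unmethylated in WYJ7. At chr8:14992736-14992768 the levels were 80.03%, 70.62% and 38.23% in the line, against 30.8%, 10.7% and 6.09% in WYJ7. At chr11:13938644-13938737 they were 68.8%, 51.4% and 63.8% in the line, against 28.8%, 27.1% and 30.2% in WYJ7. The hypo-DMR at chr10:9284582-9284624 had 20.8%, 0% and 6.67% in the line, against 71.1%, 41.2% and 55.8% in WYJ7. At chr11:9674331-9674374 the levels were 16.9%, 33.8% and 16.6% in the line, against 64.3%, 66.8% and 72.1% in WYJ7. At chr2:11237336-11237416 they were 24.4%, 31.7% and 30.6% in the line, against 62.5%, 39.6% and 66.3% in WYJ7. These 18 regions were picked for their size and for groups that do not overlap, so no test was made on them.

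**Figure D5:**
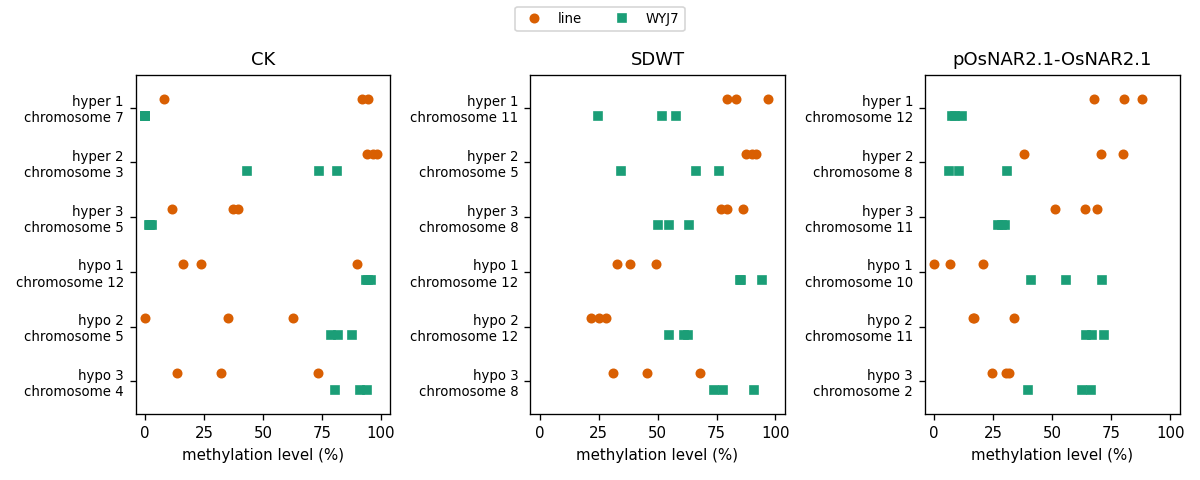
Methylation level (x axis, percent) of each library in the 3 widest hyper-DMRs and the 3 widest hypo-DMRs per list among regions of at least 5 CpGs whose groups do not overlap, numbered by size of the difference and labelled by chromosome (y axis), with the line as circles above WYJ7 as squares. CK circles scatter from 8.18 to 94.5% in the first CK hyper-DMR, while the 3 circles of the first *pOsNAR2.1-OsNAR2.1* hyper-DMR lie between 67.8 and 88.3%.

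A total of 4 places were among the chosen regions of all 3 lists. The WYJ7 values are the same measurements in each list. At chr9:1061241-1061261, with 3 CpGs, the levels were 92.8%, 66.7% and 79.6% in CK, 92.7%, 71.4% and 76.3% in SDWT and 87.2%, 92.3% and 97.0% in *pOsNAR2.1-OsNAR2.1*, against 15%, 41.3% and 60.7% in WYJ7. All 9 libraries of the lines were above all WYJ7 libraries there. At chr5:14472293-14472303 the levels were 66.7%, 89.1% and 91.2% in CK, 90.2%, 91.9% and 87.6% in SDWT and 94.4%, 100% and 93.0% in *pOsNAR2.1-OsNAR2.1*, against 76.1%, 34.5% and 66.4% in WYJ7. The CK region starts 1 bp later and overlapped WYJ7.

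The WYJ7 libraries disagreed with each other at all 4 places. Their SD was 22.9 points at chr9:1061241-1061261 and 21.8 points at chr5:14472293-14472303. At the other 2 places it was 23.1 points on chromosome 8 and 43.4 points on chromosome 2. At chr8:11671282-11671294 the 9 libraries of the lines lay between 86.8% and 97.3%, against 96.5%, 51.2% and 66.2% in WYJ7, so WYJ7-1 was as high as the lines. At chr2:12151989-12151999 the levels were 69.6%, 14.7% and 78.8% in CK, 25.4%, 65.6% and 58.1% in SDWT and 0%, 0% and 0% in *pOsNAR2.1-OsNAR2.1*, against 75.1%, 0% and 0% in WYJ7. The mean of 25% in WYJ7 came from WYJ7-1 alone. Without it WYJ7 is listed at 0, the CK and SDWT means stay above it and *pOsNAR2.1-OsNAR2.1* no longer differs from it.

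The densest 100 kb bin of each list held few regions. Bins were fixed in position, so a stretch across a bin edge can hold more. This was so in CK from 13064064 to 13164046 on chromosome 8. In CK it was the interval from 14400001 to 14500000 on chromosome 5, with 6 regions, and 2 other intervals also had 6. Of these regions 5 were hypo-DMRs, and their mean level was 20.8%, 32.2% and 31.0% in CK, against 52.5%, 54.2% and 57.6% in WYJ7. The densest interval of SDWT, from 13900001 to 14000000 on chromosome 8, had 3 regions, as did 1 other interval, with 36.9%, 45.3% and 51.3% in SDWT, against 57.7%, 63.4% and 47.1% in WYJ7. In *pOsNAR2.1-OsNAR2.1* the interval from 18400001 to 18500000 on chromosome 1 had 3 regions, as did 2 other intervals, all of those on chromosome 1 being hyper-DMRs. Their mean level was 49.6%, 53.3% and 55.8% in the line, against 24.2%, 31.7% and 30.5% in WYJ7. No fixed 100 kb bin of any list held more than 6 of the chosen regions.

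A level of exactly 0 occurred often. At least 1 library was listed at 0 in 66 CK regions (21.0%), 64 SDWT regions (49.2%) and 49 *pOsNAR2.1-OsNAR2.1* regions (31.8%). Among unannotated CpG regions outside the windows the shares were 32.3%, 44.4% and 36.7%, so this was not particular to the chosen regions. All 3 WYJ7 libraries were at 0 in 10 CK, 22 SDWT and 29 *pOsNAR2.1-OsNAR2.1* regions, and all 3 libraries of the line in 18, 16 and 14 in the same order. A lone 0 beside levels of at least 50% in the other libraries of its group was found in 7 CK regions, 4 SDWT regions and 2 *pOsNAR2.1-OsNAR2.1* regions. Whether a listed 0 stands for unmethylated reads or for missing reads is not given in the sources used here. In the 66 SDWT regions with no library at 0 the mean level difference was 2.02 points and the contrast with regions outside the windows 1.88 points, a setting chosen after seeing the data. All 6 libraries were at 0 in 1 region of SDWT and 2 of *pOsNAR2.1-OsNAR2.1*, which are the regions with equal means.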

How the data were processed

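The authors aligned WGBS reads of shoots to IRGSP-1.0 with Bismark (version 0.9.0 in the submitters' processing notes), kept uniquely mapped reads, removed cytosines of low depth, and called DMRs with methylKit and eDMR. The deposited level of a region is the mean percent methylation of its cytosines per library, not normalized between libraries. Other deposited columns are the CpG number and the authors' difference (WYJ7 minus the line), p-value, q-value and direction label; those of the comparison were not used. Regions tested and not called were not analysed here. Centromere positions were given per chromosome, rounded to 0.1 Mb. Members and lists were chosen with earlier results of these data known.

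Differences are the mean of 3 line libraries minus that of 3 WYJ7 libraries, and tests are two-sided exact permutations over libraries. Named regions are the 3 largest differences per list and direction with at least 5 CpGs and no overlap between groups. Those in all 3 lists (overlap from 1 bp) and those of the densest fixed 100 kb bin are also described. Scripts ran under scipy 1.17.1, pandas 2.3.3, numpy 2.4.6 and matplotlib 3.10.9 in Python 3.11.15, and were tested on simulated data. Alternatives were other CpG minima, windows, minimum differences, medians, merged neighbours, a replicate block and each library left out. Sequences are not printed.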

Additional observations from a re-analysis of the deposited data

Results flagged for a closer look

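The mean level over the chosen regions moved in opposite directions in the 3 comparisons with WYJ7. It was -20.6 points in CK, where all 3 libraries were below all WYJ7 libraries. It was 5.45 points in SDWT and 8.84 points in *pOsNAR2.1-OsNAR2.1*, where all 3 libraries were above. The difference between the lists was not tested. The lists hold mostly different regions and share the WYJ7 libraries. Their regions had been called different on these same libraries, so the separation of the groups is no finding in itself.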

How the results depend on the processing

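The hyper share stayed inside its Wilson interval in 46 of 51 alternatives. The sign of the mean level difference held in 48 of 51, and that of the contrast between near and outside regions in 47 of 48. Both sign counts include the replicate block of each list, which leaves the value unchanged and so could only keep the sign. The size moved more. In SDWT the difference ran from 0.581 points (5 CpGs) to 16.4 points (40 points) and the contrast from 0.541 (5 Mb) to 17.7 points (40 points) among alternatives of the same sign. At a minimum of 10 CpGs few regions remained. The hyper share was then 0% of 5 regions in CK and 50% of 2 in *pOsNAR2.1-OsNAR2.1*, and the mean level difference was -1.55 points over 2 regions in SDWT and -0.1 points over 2 regions in *pOsNAR2.1-OsNAR2.1*. The SDWT contrast between near and outside was -14.8 points. The CK hyper share was 8.82% within 1 Mb, 19.7% within 5 Mb and 25% at a WYJ7 mean of 20 to 80%. With both means at 20 to 80% the SDWT difference was -0.762 points. Beyond the fewer regions of a stricter limit, the cause was not tested. With single libraries left out, the hyper share was 13.4 to 15.9% in CK, 55.4 to 58.5% in SDWT and 66.9 to 68.8% in *pOsNAR2.1-OsNAR2.1*. The mean level difference was then -24.2 to -18.8, 5.10 to 6.14 and 8.03 to 9.58 points in the same order.

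The difference in median SD (line minus WYJ7) was the least stable value and kept its size in 21 of 45 alternatives. In CK it was -2.27 points at 10 CpGs, -0.722 at a WYJ7 mean of 20 to 80%, and 2.29 to 12.4 with single libraries left out. In SDWT it was -9.13 at 10 CpGs, 0.855 at a difference of at least 40 points, -3.01 at one of at least 20 points, -13.0 at a WYJ7 mean of 20 to 80%, 2.85 with both means there, and -4.07 to 4.06 with single libraries left out. In *pOsNAR2.1-OsNAR2.1* it was 5.96 at 5 CpGs, 5.36 at 10 CpGs, 3.90 at 40 points, -0.554 within 5 Mb, -0.804 with no library at 0, -6.01 at a WYJ7 mean of 20 to 80%, and -1.79 to 3.81 with single libraries left out. The settings on 0, on levels and on 20 points were added after seeing the data. With a single library left out, an SD of 2 levels was set against an SD of 3.

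Replicate numbers did not pair the libraries, since the correlations of same-numbered deviations ran between -0.141 and 0.0140. With a replicate block the differences were -20.6, 5.45 and 8.84 points as before, and the paired exact permutation test cannot give a p under 0.25 with 3 pairs. The unknown depth of regions and the few CpGs per region limit single levels.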

Other observations

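Regions outside the CpG class were few near centromeres and mostly lower in the lines. In CK 18 unannotated CpH regions (cytosines followed by a base other than G) lay in the same windows, of which 17 had a lower mean level in CK, beside 98 of all 160 CpH regions of that list. Their mean was 21.8% ± 1.00 in CK and 53.1% ± 0.781 in WYJ7 (SD, n = 3 each). In *pOsNAR2.1-OsNAR2.1* there were 10, of which 9 were lower, beside 58 of all 91 CpH regions of that list, with 10.3% ± 1.50 in the line and 29.9% ± 1.57 in WYJ7 (SD, n = 3 each). The SDWT list held 0 such regions. The regions had been called on these libraries, so the levels are a description. In *pOsNAR2.1-OsNAR2.1* the direction was thus the opposite of that in most of its CpG regions.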
